A study of Mus musculus with 12 samples.

Results

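Transcripts of 9 transcription factors that set macrophage identity (Spi1, Maf, Cebpb, Nr1h3, Spic, Tfec, Id3, Gata6 and Bhlhe40) were compared between YFP+ and YFP− macrophages sorted from mouse pancreatic tumours. The members were every non-control probe of the array that carries one of these gene names: 10 probes, since Nr1h3 has 2, and the 9 genes were among 20370 genes and features tested. RNA came from 12 samples of macrophages, 6 labelled YFP+ and 6 labelled YFP−, taken by flow sorting from implanted tumours, and each was amplified, labelled with Cy5 and hybridised to a one-colour Agilent array. Both groups were female mice of the C57/B6 background, 8 to 10 weeks old, and the genotype of either group is not provided. The series' design text names wild-type, KPC and FLT3-CRE/LSL-YFP mice. In the last of these, a Cre recombinase expressed under Flt3, a receptor of haematopoietic progenitors, switches on YFP, so that YFP would mark descendants of such progenitors. That the YFP labels carry this meaning in these samples rests on that text alone. The labels number 6 tumours, each with 1 YFP+ and 1 YFP− sample, and do not say whether these are separate animals, so the p-values reflect scatter among samples and may measure a technical spread in part.

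A macrophage is specified in layers. PU.1, the ETS-family protein encoded by Spi1, opens the enhancers of the whole myeloid lineage, and C/EBPβ and MAF act with it in many tissue macrophages. Over this base lie factors tied to a niche: SPI-C in the iron-recycling macrophages of the splenic red pulp, LXRα (Nr1h3) and ID3 in the Kupffer cells of the liver, and GATA6 in the large macrophages of the peritoneal cavity. TFEC, of the lysosomal MiT family, and BHLHE40, a basic helix-loop-helix repressor, tune inflammatory and proliferative programmes. GATA6 is also a factor of pancreatic epithelium, so its transcript is not a mark of macrophages alone.

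Each probe is 60 bases long. The array annotation places 8 of the 10 in the mouse genome. It leaves the probes of Spi1 and Id3 unmapped, so these are given by their sequences, 5′ to 3′, as the array lists them, in lower case throughout because no base is singled out.
Spi1: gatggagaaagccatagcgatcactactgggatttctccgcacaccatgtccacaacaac
Id3: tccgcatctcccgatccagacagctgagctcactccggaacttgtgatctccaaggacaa
The Spi1 probe lies at bases 275 to 334 of its transcript and the Id3 probe at bases 338 to 397. In the mm9 build, Cebpb is probed at chr2:167515828-167515887, Maf at chr8:118227736-118227795, Spic at chr10:88138053-88138112, Tfec at chr6:16783720-16783779 and Bhlhe40 at chr6:108616309-108616368. The probes of Nr1h3, at chr2:91024345-91024404 and chr2:91024250-91024309, lie 35 bases apart. G and C make up 35.0% of the Cebpb probe, the lowest share of the 10. The highest share, 55.0%, is that of the Id3 probe and of the Nr1h3 probe at chr2:91024345-91024404. Probes differ in how brightly they hybridise, so levels are compared between arrays and not between genes, and no gene model was used here to place the probes in exons or UTRs.

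All members were measured in both groups. Values are log2 processed signal minus the array's own 75th percentile, so 0 marks that percentile of the array's own probes. The probes of 8 members were well above background on all 12 arrays, and that of Gata6 on 11: on 6 of 6 YFP− and 5 of 6 YFP+ arrays (two-sided Fisher's exact test, p = 1). The niche-restricted factors Spic, Id3 and Nr1h3 were above background on 6 of 6 arrays of each group. No member probe was saturated. Of the macrophage markers, 14 of 14, including Adgre1, Csf1r and Mertk, were well above background on all 12 arrays. Detection does not set macrophages apart from every other cell type here. Of the markers tested, 10 of 11 epithelial, 8 of 9 acinar, 7 of 10 fibroblast and 8 of 8 dendritic-cell markers were detected on all 12 arrays too. Shares were lower for endothelial (2 of 8), B-cell and plasma-cell (2 of 8), T and NK cell (3 of 5) and neutrophil markers (5 of 8). Markers tested were already those well above background on at least 6 arrays, which raises these shares.

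At an adjusted p under 0.05 (limma, Benjamini-Hochberg over all genes), 0 of the 9 members were called, where 1.75% of all 20370 genes and features were called: 0.334% higher and 1.41% lower in YFP+. Maf and Gata6, 2 of the 9, had an unadjusted p under 0.05, as did 11.2% of all genes. Differences are given as YFP+ minus YFP−, on the log2 scale. Their median over all genes was −0.03, their median size was 0.29 and the 90th percentile of size was 1.11. Of the members, 5 had a positive and 4 a negative difference.

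**Figure D1:**
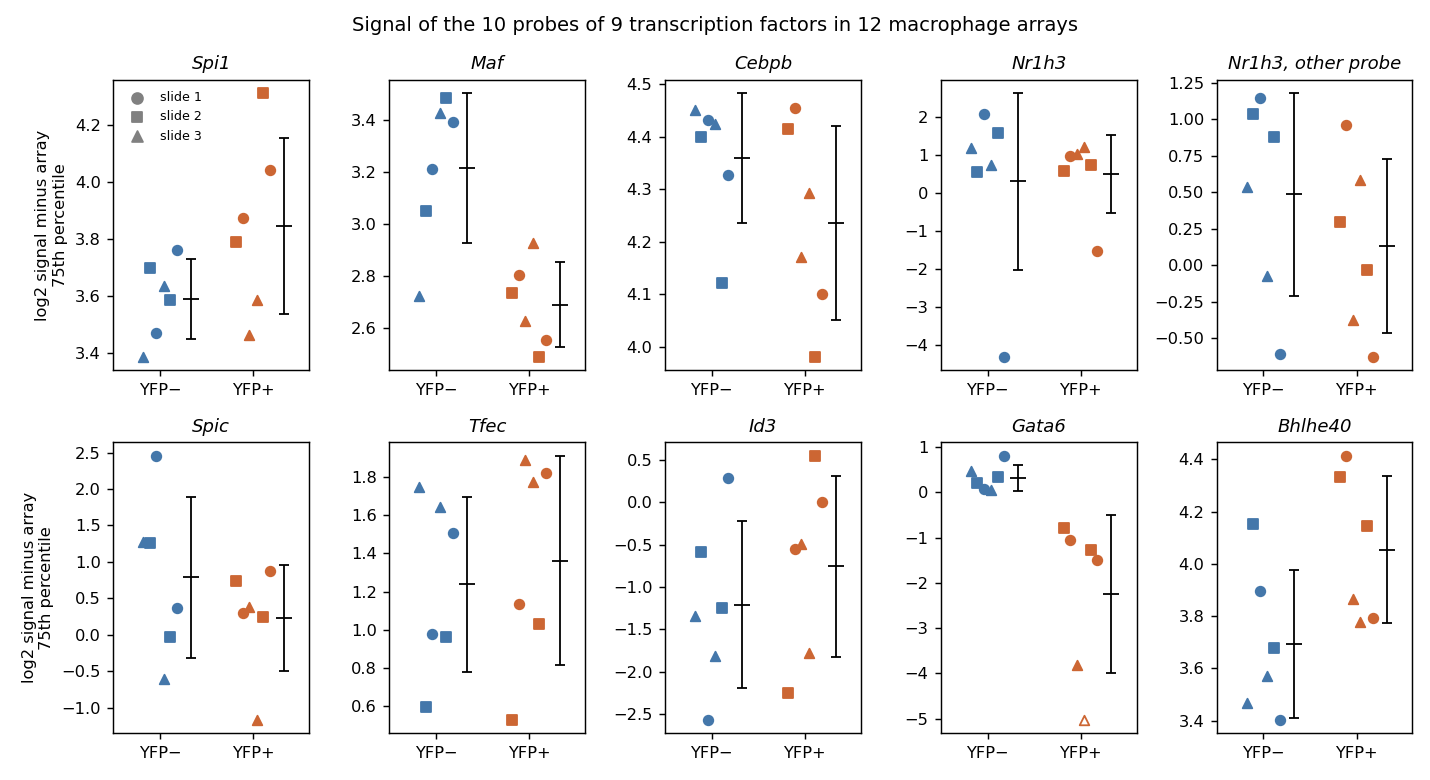
Log2 processed signal minus the array's 75th percentile (vertical axes, one scale per panel) for the 10 probes of the 9 factors, on 6 YFP− (blue) and 6 YFP+ (orange) arrays. Symbols mark the slide, bars give the mean ± SD, and the open triangle is the array on which Gata6 was not well above background. Only in the Gata6 panel are the groups separate; the Maf groups overlap through 1 YFP− array.

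PU.1, the factor required for all macrophages, had a narrow range of signal on every array. Spi1 measured 3.46, 3.58, 3.79, 3.88, 4.04 and 4.31 on the YFP+ arrays and 3.39, 3.47, 3.58, 3.64, 3.70 and 3.76 on the YFP− arrays. The YFP− arrays lay within 0.38 of each other and the YFP+ arrays within 0.85, with 4 YFP+ arrays above every YFP− array. The difference was 0.26 (SE 0.18 with 6 arrays per group, limma adjusted p = 0.68), and its 95% interval ran from −0.14 to 0.65. In linear terms this interval runs from 0.910-fold to 1.57-fold. Its size depended on the slide: it was 0.34 and 0.41 on slides 1 and 2 and 0.014 on slide 3. It was 0.46 with median centring (adjusted p = 0.23), 0.48 with array brightness as a covariate (adjusted p = 0.52) and 0.16 when the YFP+ array of tumour 5 was left out (adjusted p = 0.84).

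C/EBPβ, a basic leucine-zipper factor of inflammatory and alternatively activated macrophages, was the most even member. Cebpb ranged from 3.98 to 4.46 (median 4.23) in YFP+ and from 4.12 to 4.45 (median 4.41) in YFP−, so that the YFP− range lay inside the YFP+ range. The difference was −0.12 (SE 0.15, limma adjusted p = 0.85), with a 95% interval from −0.46 to 0.21. Its sign is not settled, since it became 0.084 when arrays were centred on their medians, 0.051 after quantile normalization and 0.052 in the authors' deposited table.

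MAF, a large Maf-family factor of resident-type macrophages, had the member difference with the next smallest p after Gata6. On the YFP− arrays Maf measured 2.72, 3.05, 3.21, 3.39, 3.43 and 3.49, and on the YFP+ arrays 2.49, 2.56, 2.63, 2.74, 2.81 and 2.93. Of the YFP− arrays, 5 lay above all 6 YFP+ arrays, and the sixth, of tumour 1, lay among them. The mean was 2.69 ± 0.16 (SD, n = 6) in YFP+ and 3.22 ± 0.29 (SD, n = 6) in YFP−, a difference of −0.53 (SE 0.18, 95% interval −0.92 to −0.14, limma unadjusted p = 0.012 and adjusted p = 0.24). It was negative in 5 of 6 tumour numbers. Within slides it was −0.62, −0.66 and −0.30, and leaving out each array in turn it lay between −0.62 and −0.47 with adjusted p from 0.10 to 0.40. Centring arrays on their medians, which moved the median of all genes from −0.03 to 0.18, gave −0.32.

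BHLHE40, which represses Il10 and supports proliferation of resident macrophages, leaned the other way. Bhlhe40 measured 3.78, 3.79, 3.87, 4.14, 4.33 and 4.41 in YFP+ and 3.40, 3.47, 3.57, 3.68, 3.89 and 4.15 in YFP−. The ranges overlapped, with the YFP− arrays of tumours 2 and 3 inside the YFP+ range. The difference of 0.36 (SE 0.20, 95% interval −0.07 to 0.79) was not called (limma adjusted p = 0.55). It was positive in 5 of 6 tumour numbers and on each slide, at 0.45, 0.32 and 0.30. Median centring gave 0.57 (limma unadjusted p = 0.0082, adjusted p = 0.16), and array brightness as a covariate gave 0.91 (unadjusted p = 0.011, adjusted p = 0.34).

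TFEC, a macrophage-restricted relative of MITF and TFEB, showed no separation. Tfec ran from 0.53 to 1.89 (median 1.46) in YFP+ and from 0.59 to 1.75 (median 1.24) in YFP−, for a difference of 0.13 (SE 0.29, 95% interval −0.51 to 0.76, limma adjusted p = 0.94). Tumour 1 alone had a negative difference, −1.22, while the other 5 lay between 0.07 and 0.91. Array brightness as a covariate turned the sign, giving −0.88, and so did leaving out the YFP− array of tumour 2 (−0.0036) or both arrays of tumour 3 (−0.032).

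Gata6 stood apart from the other members. On the YFP− arrays it measured 0.04, 0.07, 0.20, 0.35, 0.47 and 0.81, and on the YFP+ arrays −5.02, −3.81, −1.49, −1.28, −1.06 and −0.79. The groups did not overlap, as was the case for 1.88% of all genes, and the difference was negative in all 6 tumour numbers. Gata6 was the 1 member with 1 sign in all 6, as were 8.38% of all genes. YFP− arrays were tight (SD 0.29), and the YFP+ arrays spread widely (SD 1.74) because the arrays of tumours 3 and 4, both on slide 3, were far below the other 4. The −5.02 of tumour 4 is the array not well above background.

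The mean difference in Gata6 was −2.57 (SE 0.66, n = 6 per group, 95% interval −4.01 to −1.13), a 5.93-fold lower mean in YFP+. Its unadjusted limma p was 0.0021 and its adjusted p 0.087, so it did not pass the threshold. An exact two-sided permutation test over the arrays, which leaves out the pairing by tumour number, gave p = 0.0022, the smallest that 6 against 6 allows. Within slides 1, 2 and 3 the difference was −1.72, −1.31 and −4.67. Without slide 3, a choice made after these values were seen, it was −1.52 with a smaller error (SE 0.24) and an adjusted p of 0.033.

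The Gata6 call depended on how the arrays were modelled. With slide as a block the adjusted p was 0.033, with normexp background correction the difference was −2.02 and the adjusted p 0.013, and with an intensity trend and robust variances the adjusted p was 0.043. With array weights the adjusted p was 0.12, and with array brightness as a covariate the difference was −1.95 and the adjusted p 0.51. In every fit run the sign was negative. Array brightness itself differed by group: the YFP+ arrays had a 75th percentile of signal of 3660 ± 266 (SD, n = 6) and the YFP− arrays one of 2641 ± 412 (SD, n = 6; exact permutation test, two-sided, p = 0.0043), and its part in the result was not tested.

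Markers of some other cell types were lower in YFP+, as Gata6 was, and those of others were not. Of endothelial markers 4 of 8 had a positive difference (median 0.14), and of T and NK cell markers 3 of 5 (median 0.23). Of dendritic-cell markers 6 of 8 had a positive difference (median 0.69). In each of these lists 0 were called (limma). Of 11 epithelial markers tested, 5 fell in YFP+ and 11 of 11 had a negative difference (median −1.81). Krt8, a keratin of simple epithelia, fell by 2.59 (SE 0.33, limma adjusted p = 0.0015), Muc1, an epithelial mucin, by 2.31 (adjusted p = 0.0020) and Krt18 by 2.11 (adjusted p = 0.0063). The mean of the 11 markers, each centred over the arrays, lay between −1.50 and −0.16 on YFP+ arrays and between 0.32 and 1.34 on YFP− arrays. The same mean over 3 mesothelial markers lay between −2.99 and −0.46 in YFP+ and between 0.47 and 2.30 in YFP−, and 1 of the 3, Krt19, which is also an epithelial marker, fell by 2.94 (adjusted p = 0.00665). Among 10 fibroblast markers 6 fell, Postn, Col3a1 and Col1a1 with the smallest p, and their mean lay between −1.53 and −0.75 in YFP+ and between −0.08 and 1.75 in YFP−.

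Acinar markers, and 4 of 5 mast cell, basophil and eosinophil markers, also had lower values in YFP+. Of 9 acinar markers, which encode pancreatic digestive enzymes for the most part, 9 had a negative difference (median −1.57) and 1, the elastase Cela1, fell by 3.43 (limma adjusted p = 0.0495). The acinar mean lay between −2.34 and 0.23 in YFP+ and between −1.18 and 2.41 in YFP−, so the groups overlapped, and the median difference was −0.73, −0.32 and −3.69 on slides 1, 2 and 3. Of 5 mast cell, basophil and eosinophil markers 3 fell: Mcpt8 (limma adjusted p = 0.00665), Il5ra (−2.98, adjusted p = 0.0097) and Tpsb2 (−1.25, adjusted p = 0.020). Their mean lay between −1.91 and −0.29 in YFP+ and between 0.44 and 1.89 in YFP−. Among these 5, Siglecf alone had a positive difference, 0.15 (limma adjusted p = 0.95). Neutrophil markers were split: of 8 tested, 4 were positive and 4 negative (median −0.54). Of these 8, 0 were called and 5 had an unadjusted p under 0.05 (limma). In bulk RNA, fewer cells of a type and less of the RNA per cell cannot be told apart.

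The YFP+ arrays of tumours 3 and 4, lowest for Gata6, were also lowest of all 12 for the epithelial mean (−1.50 and −1.50) and for the mean of the 14 macrophage markers (−0.47 and −0.49). Elsewhere the macrophage mean lay between −0.04 and 0.20 in YFP+ and between −0.24 and 0.29 in YFP−, and 0 of the 14 macrophage markers were called, with 1 at an unadjusted p under 0.05 (limma). Of the 14, 13 had a negative difference (median −0.13), and 3 with median centring. The part of epithelial, mesothelial, fibroblast, acinar, mast cell, basophil or eosinophil RNA in the Gata6 difference was not tested.

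**Figure D2:**
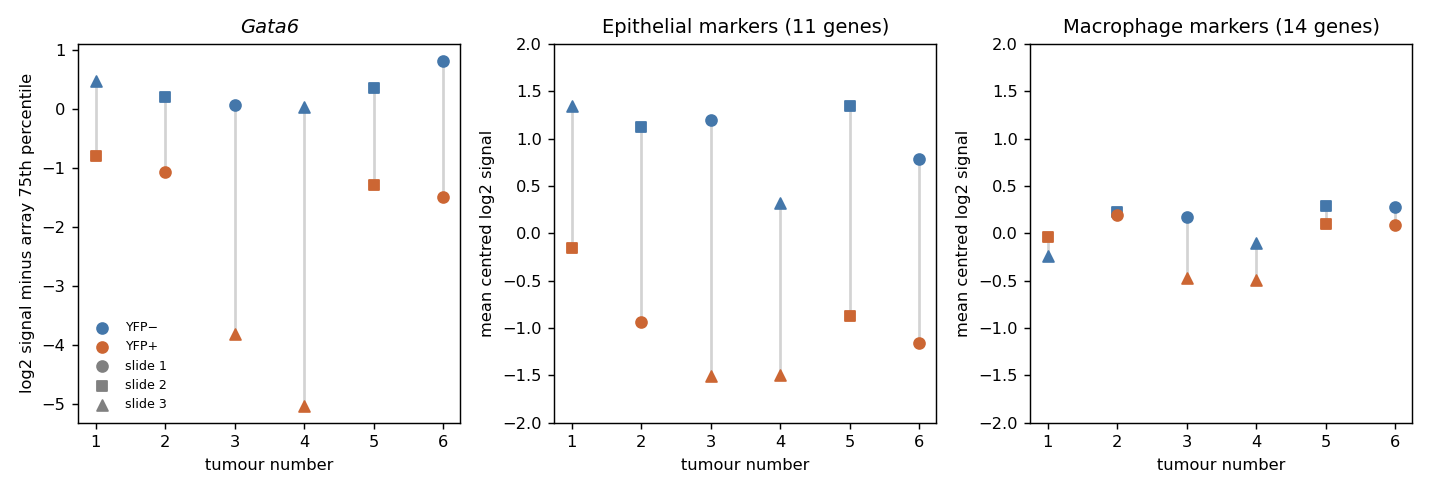
Gata6 (left, log2 signal minus the array's 75th percentile), the mean of 11 epithelial markers (middle) and the mean of 14 macrophage markers (right, both as log2 signal centred over the 12 arrays) by tumour number, with YFP− in blue, YFP+ in orange and a grey line joining equal numbers. Gata6 and the epithelial mean were lower on the YFP+ array of every tumour number, with the YFP+ arrays of tumours 3 and 4 lowest in all 3 panels.

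Among genes associated with GATA6 in peritoneal macrophages, 0 of 15 tested were called, with 4 at an unadjusted p under 0.05 (limma). With normexp 1 of the 15 was called. Their median difference was −0.48, beside −0.03 for all genes, and 10 of 15 were negative. Ltbp1, a latent TGF-β binding protein, measured −3.32 ± 1.78 (SD, n = 6) in YFP+ and −0.63 ± 1.15 (SD, n = 6) in YFP−, a difference of −2.68 (limma adjusted p = 0.14). Wt1, which also marks mesothelium, had −2.33 (adjusted p = 0.23), and Rarb, a retinoic acid receptor, 0.68 (adjusted p = 0.37). The list did not split one way, as Prg4 had −0.63 and F10 had 0.37. Of the GATA relatives, Gata1 and Gata5 were tested, with −0.30 and −0.34 (adjusted p = 0.93 and 0.75), Gata2 was not well above background on any array, and Gata3 and Gata4 did not pass the filter.

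The iron and liver niche factors varied more between arrays of a group than between groups. SPI-C, an ETS factor induced by haem, had the values −1.17, 0.25, 0.30, 0.38, 0.73 and 0.87 in YFP+ and −0.61, −0.03, 0.37, 1.26, 1.28 and 2.46 in YFP−. In both groups the lowest array was that of tumour 4. The Spic difference was −0.56 (SE 0.50, 95% interval −1.65 to 0.53, limma adjusted p = 0.77), and tumours 5 and 6 had positive differences of 0.28 and 0.50. With array brightness as a covariate it was 0.36, and with median centring −0.35. Single arrays moved it: it was −0.22 without the YFP− array of tumour 3, −0.28 without the YFP+ array of tumour 4 and −0.84 without the YFP− array of tumour 4.

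ID3, an inhibitor of E-protein DNA binding that Kupffer cells require, spanned 2.80 log2 units in YFP+ and 2.85 in YFP−. Id3 measured −2.25, −1.78, −0.56, −0.50, 0.00 and 0.55 in YFP+ and −2.56, −1.81, −1.34, −1.25, −0.58 and 0.29 in YFP−. The groups overlapped almost throughout, and the difference was 0.45 (SE 0.55, 95% interval −0.74 to 1.65, limma adjusted p = 0.85). By tumour number it ran from −0.92 in tumour 1 to 2.07 in tumour 3. Single arrays moved this value too: it was 0.18 without the YFP− array of tumour 3, 0.19 and 0.30 without the YFP+ arrays of tumours 5 and 6, and 0.75 without the YFP+ array of tumour 1 or the YFP− array of tumour 6. With array brightness as a covariate it was 0.044.

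LXRα, the oxysterol receptor encoded by Nr1h3, was read by 2 neighbouring probes that did not give one answer. The probe nearer the transcript end, the brighter one and so the one tested, measured −1.51, 0.58, 0.75, 0.99, 1.02 and 1.23 in YFP+ and −4.31, 0.57, 0.75, 1.18, 1.58 and 2.09 in YFP−. Both lowest values belong to tumour 6, and the other 5 arrays of each group were above 0. The difference was 0.20 (SE 0.94, 95% interval −1.85 to 2.25, limma adjusted p = 0.97). Without both arrays of tumour 6 it was −0.32, and without the YFP− array alone −0.72.

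The other Nr1h3 probe did not show the same drop. It measured −0.63, −0.37, −0.03, 0.29, 0.59 and 0.96 in YFP+ and −0.61, −0.07, 0.54, 0.88, 1.03 and 1.15 in YFP−, with tumour 6 lowest in both groups but close to the next arrays. Tested as a probe of its own, its difference was −0.35 (SE 0.36, limma adjusted p = 0.81), negative in 5 of 6 tumour numbers. Over the 12 arrays the probes correlated with Pearson r = 0.69 (permutation p = 0.0014) and Spearman rho = 0.58 (permutation p = 0.052). Leaving out the arrays farthest from the median, those of tumour 6, lowered r to 0.47, so the relation rests largely on them, and each slide holds too few arrays for a value of its own.

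**Figure D3:**
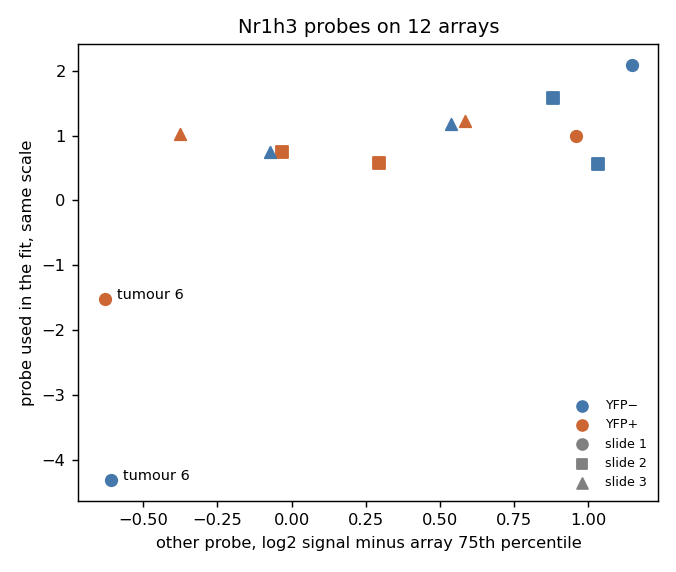
The Nr1h3 probe used in the test (vertical axis) against the neighbouring probe (horizontal axis), both as log2 signal minus the array's 75th percentile, 1 point per array (YFP− blue, YFP+ orange, symbols by slide). Both tumour 6 arrays are lowest on both axes, at −1.51 and −4.31 on the tested probe and at −0.63 and −0.61 on the other.

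**Figure D4:**
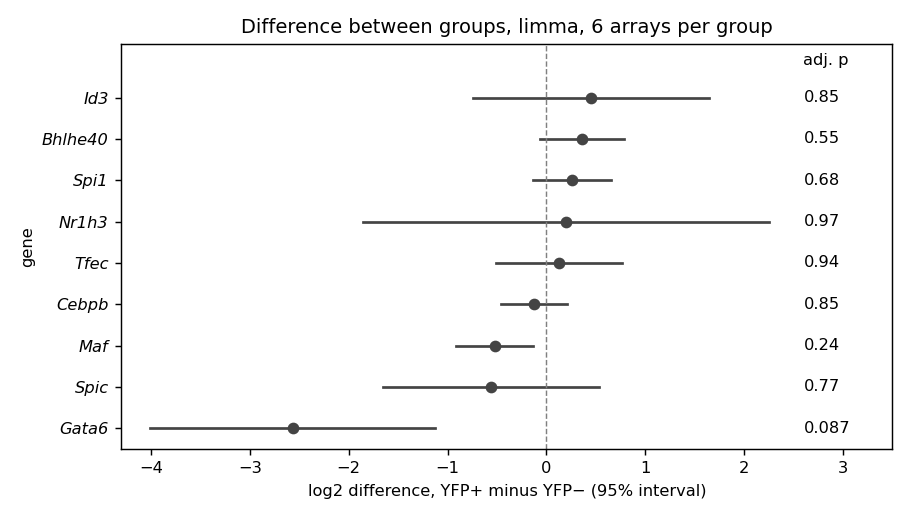
Difference in log2 signal, YFP+ minus YFP−, for the 9 factors (points) with limma's 95% intervals (lines) and adjusted p-values at the right. The intervals of Maf and Gata6 lie below 0, and no adjusted p is under 0.05; the Nr1h3 interval, from −1.85 to 2.25, is the widest.

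Relatives of the members, grouped by protein family, partner or gene name, gave 0 calls (limma). The 13 ETS relatives had a median of 0.08, and Etv3, a repressor of macrophage proliferation, had 1.20 (adjusted p = 0.39, positive in 6 of 6 tumour numbers). Spib, a PU.1 paralogue of B cells and plasmacytoid dendritic cells, had 1.92 (adjusted p = 0.48) and was above background on 6 of 6 YFP+ and 3 of 6 YFP− arrays. It is also 1 of 8 B-cell and plasma-cell markers tested, of which 6 had a positive difference (median 1.34) and 0 rose. Of the 8, 5 had an unadjusted p under 0.05 (limma), and 3 were called with slide as a block. The early B-cell factor Ebf1 alone was called in the main fit, where it fell by 3.47 (adjusted p = 0.010). Ebf1 was above background on 1 of 6 YFP+ and 5 of 6 YFP− arrays. The 8 markers had a mean between −1.08 and 1.78 in YFP+ and between −1.70 and 0.41 in YFP−. The part of such cells in the Spib value was not tested.

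The 8 Maf relatives, which include the partner proteins Bach1 and Nfe2l2, had a median of 0.06. Maff, a small Maf protein, had 0.36 (SE 0.32, limma adjusted p = 0.77). All 6 C/EBP relatives, with Cebpz included by its name, had a positive difference (median 0.26), led by the granulocyte factor Cebpe at 0.66 (adjusted p = 0.62). With quantile normalization, with normexp and without slide 3, 5 of the 6 were positive. Of the 8 LXR, RXR and PPAR relatives 4 were positive: Nr1h2, the second LXR gene, had 0.28 (adjusted p = 0.61) and Pparg, a factor of alveolar macrophages and lipid storage, had −0.93 (adjusted p = 0.36).

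Among Id and E proteins, Id1 had −1.39 (SE 0.44, limma adjusted p = 0.19) while Id3 had 0.45 and Id2 −0.11. Hes1, a Notch target, had −0.87 (adjusted p = 0.30, negative in 6 of 6 tumour numbers), and Bhlhe41, the close relative of Bhlhe40, had 0.04. The MiT relatives Mitf, Tfeb and Tfe3 had 0.15, −0.17 and −0.08. Of 27 other macrophage and monocyte factors 13 were positive (median −0.04), and 1 was called with median centring. Runx3, a Runt-family factor, had 0.70 (SE 0.21, adjusted p = 0.14, positive in 6 of 6), Irf4, also a dendritic-cell marker here, 0.85 (adjusted p = 0.17), and the immediate-early factor Egr1 −0.57 (adjusted p = 0.28).

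Genes associated with each factor in macrophages were also taken as lists, and 0 genes of any list were called (limma). The 16 MAF-associated genes of resident macrophages all had a negative difference, against 52.8% of all genes, with a median of −0.45 and 6 at an unadjusted p under 0.05. Of the 14 macrophage markers, 13 were negative too (median −0.13), so this sign is not particular to the MAF-associated genes. C1qa, C1qb, C1qc, Cd163, Mrc1 and Mertk are on both lists. The count of 16 depends on the scaling: 13 of 16 were negative after quantile normalization, 14 with normexp, 13 without slide 3, and 10 with median centring, where 33.3% of all genes were negative. Selenop, a selenium carrier, measured 4.27 ± 0.26 (SD, n = 6) in YFP+ and 4.92 ± 0.21 (SD, n = 6) in YFP−, with no overlap and a difference of −0.65 (adjusted p = 0.11, or 1 call in the list with slide as a block). Lyve1, a hyaluronan receptor, had −0.98 (adjusted p = 0.25) and Cbr2, a carbonyl reductase, −0.66 (adjusted p = 0.30). The complement genes C1qa, C1qb and C1qc of the same list had −0.0059, −0.11 and −0.20.

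The 11 SPI-C and iron-recycling genes had a median of −0.49, with 9 negative. With quantile normalization, in the authors' deposited table and with median centring, 7 of 11 were negative, with medians of −0.21, −0.21 and −0.28. Vcam1, an adhesion molecule of red pulp macrophages, had −1.01 (SE 0.26, limma adjusted p = 0.082), and Slc40a1, the iron exporter ferroportin, had −1.55 (SE 0.45, adjusted p = 0.13), both negative in 6 of 6 tumour numbers. Hmox1, haem oxygenase, had −0.13 and Spic itself −0.56. Red-cell transcripts moved alongside: of 6 erythroid markers 3 fell, the globins Hbb-b2, Hbb-b1 and Hba-a1, and the mean of the 6 lay between −2.60 and −0.08 in YFP+ and between −0.01 and 1.63 in YFP−. The part of red-cell RNA in these values was not tested.

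The 10 Kupffer-cell and ID3-associated genes had a median of −0.80 with 8 negative, and 8 were negative with median centring too. Timd4, which binds phosphatidylserine on dying cells and marks resident macrophages, measured −2.96 ± 1.19 (SD, n = 6) in YFP+ and −0.80 ± 0.61 (SD, n = 6) in YFP−, a difference of −2.16 (SE 0.51, limma adjusted p = 0.056). Vsig4, a complement receptor, had −1.78 (SE 0.45, adjusted p = 0.083), and its groups did not overlap. Both had the sign opposite to Id3, at 0.45. Normexp background correction called 2 genes of this list.

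The remaining lists lay near the median of all genes. The 20 PU.1-dependent genes had a median of −0.05 with 9 positive, and 17 of 20 were positive with quantile normalization, in the authors' deposited table and with median centring. They ran from −0.52 for Itgam, the integrin CD11b, to 0.44 for Ncf1, an oxidase subunit. The 15 LXR targets had −0.11, with 4 positive, among them Cyp51 at 1.35 and Lpl at 0.50 (limma adjusted p = 0.52 and 0.51). Cyp51 was well above background on 5 of 6 YFP+ and 1 of 6 YFP− arrays, so its difference rests on dim signals. The cholesterol exporters Abca1 and Abcg1 had −0.04 and 0.19, and the apolipoproteins Apoe and Apoc1 −0.47 and −2.10 (limma adjusted p = 0.58 and 0.27). The 12 C/EBPβ-associated genes had −0.13, led by S100a9, which is also a neutrophil marker, at −1.67 (SE 0.42, adjusted p = 0.076). The 12 TFEC and MiT targets had −0.13 and the 11 BHLHE40-associated genes 0.19, with Mcoln1, a lysosomal channel, at −0.77 (adjusted p = 0.41) and Mki67, of cycling cells, at 0.41 (adjusted p = 0.80). With median centring, where the median of all genes was 0.18, the medians of these lists were 0.16 (PU.1), 0.10 (LXR), 0.073 (C/EBPβ), 0.079 (TFEC and MiT) and 0.40 (BHLHE40). With slide as a block 1 LXR target was called, and with normexp 1 C/EBPβ-associated gene.

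**Figure D5:**
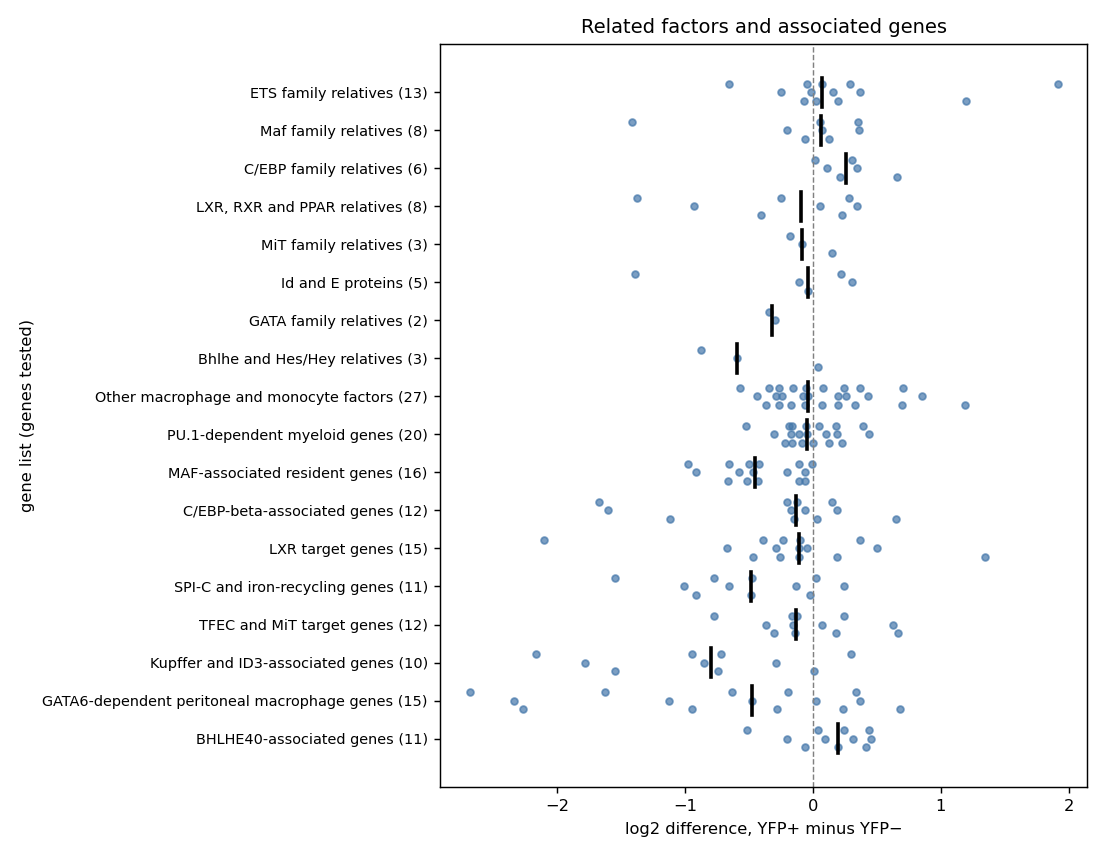
Log2 difference, YFP+ minus YFP−, of every tested gene (points) in the family lists and in the lists of associated genes, with the number tested in parentheses, list medians as black bars and 0 as a dashed line. The lowest list median is −0.80, of the Kupffer and ID3-associated genes, and none of these genes was called.

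Across the 12 arrays the members did not rise and fall as one group. Of the 28 pairs among the 8 members other than Gata6, 0 had an adjusted permutation p under 0.05 for Pearson r (lowest 0.28) and 4 an unadjusted one. Spi1 and Id3 had r = 0.63 (permutation p = 0.026) and rho = 0.49 (permutation p = 0.11), and r was 0.30 without the arrays farthest from the Spi1 median. Tfec and Bhlhe40 had r = −0.64 (permutation p = 0.029) and rho = −0.46 (permutation p = 0.13), and r was −0.45 without the farthest. Nr1h3 and Id3 had r = −0.59 (permutation p = 0.030), and Cebpb and Id3 r = −0.59 (permutation p = 0.045). By rank, Spi1 and Nr1h3 had rho = −0.69 (permutation p = 0.015, adjusted p = 0.43), beside r = −0.33. Gata6 was left out because its groups are separate.

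The genes whose signal followed each member most closely over the 12 arrays are given as a description, chosen as the 3 highest Pearson correlations among all tested genes. For Spi1 they were Rnf41, Wdr18 and Slc12a4 (r = 0.91, 0.89 and 0.87), and for Maf they were Tmem59, Ctnna1 and Gm7056 (0.92, 0.89 and 0.89). Gata6 was followed by Apob, Acan and Cldn18 (0.95, 0.95 and 0.94). Of these, Apob, an apolipoprotein of liver and gut, fell by 4.37 in YFP+ (limma adjusted p = 0.0497) and Cldn18, a tight-junction claudin, fell by 3.40 (adjusted p = 0.014). The tested Nr1h3 probe was followed by Bank1, Tlr12 and Dzip3 (0.97, 0.95 and 0.94), values that share its low arrays of tumour 6.

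Bhlhe40 was followed by Lrwd1, Dusp5 and Bin2 (r = 0.93, 0.93 and 0.92), Tfec by Fam117b, Tlr6 and Ncoa2 (0.94, 0.94 and 0.93) and Id3 by Zswim7, Atg13 and Rasal2 (0.92, 0.90 and 0.86). Cebpb was followed by Cenpt, Unc5a and Ppp4r3a (0.88, 0.88 and 0.87) and Spic by Med19, Gucy1a2 and Cyth2 (0.89, 0.87 and 0.87). No other member was among these nearest genes.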

How the data were processed

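The deposited intensity values of the 12 arrays (Feature Extraction 11.5.1.1, per the submitters' processing notes and the file headers) are background-subtracted red processed signals not scaled across arrays. A value table from the authors, deposited on a log2 scale with equal column medians of 8.83, served as an alternative. Control spots (1377) and spots with outlier flags were left out, spots of a probe were averaged, and log2 signals were scaled by each array's 75th percentile. Of 39429 probes, 25434 well above background on at least 6 arrays were kept, and a gene was read from its brightest kept probe. The labels' titles gave group and tumour number; the 3 slides each hold both groups. The test was limma's (version 3.58.1, R 4.3.3), by lmFit and eBayes with group as the factor on all 12 arrays, and was checked on simulated data. There it called 13 of 100 genes with a true log2 difference of size 1 and 53 of 100 with size 2. It called 2 of 20170 genes with a true difference of 0. Most simulated differences of size 1 were therefore missed. Correlation tests used 100000 permutations (Python 3.11.15, scipy 1.17.1, numpy 2.4.6, pandas 2.3.3; figures by matplotlib 3.10.9; statmod 1.5.0). The members and gene lists were chosen with earlier results of these data known. Named were all members, up to 3 called genes of a marker list and the 3 genes most like each member. In the lists of related genes, with 0 called, genes were named mostly for a small p, and some with a smaller p were left out. Other genes of a list were chosen after their values were seen. Symbols were updated through a RefSeq table used for names alone (28330 probes matched), and the number of deposited columns not used was 0. Probe positions were copied from the deposited files, which use mm9. Other scalings, filters, blocks and left-out arrays were tried as alternatives; leaving out slide 3 and the list counts under other settings were added after seeing the data. The values of 1 listed gene are not reported here. Normal pancreas and other mice of the design text were not analysed here.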

Additional observations from a re-analysis of the deposited data

Results flagged for a closer look

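In 3 of 20 groups of 6 arrays (10 probes in 2 groups), 1 array lay far from the other 5 by Dixon's criterion, where chance gives about 1 group in 20. For the Nr1h3 probe nearer the transcript end, the YFP+ array of tumour 6 measured −1.51, with the nearest other YFP+ array at 0.58. On the same probe the YFP− array of tumour 6 measured −4.31, with the nearest other YFP− array at 0.57. For Spic, the YFP+ array of tumour 4 measured −1.17, with the nearest other at 0.25. The spread of Gata6 in YFP+ did not meet this criterion, since its low values came on 2 arrays.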

How the results depend on the processing

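The count of called members, 0 in the main comparison, was 1 (Gata6) with slide as a block, with slide and tumour number together, with normexp correction, with an intensity trend and robust variances, at a threshold of 0.10, and without slide 3, an alternative chosen after the data were seen. It was 0 in the other fits, including each left-out array (0 to 0) and each left-out tumour number (0 to 0). The number of genes called, 356, was 556 with slide as a block, 558 with slide and tumour number together, 547 with normexp, 233 with probes above background on all 12 arrays (which drops Gata6, so 8 members were tested), 12 with array brightness as a covariate, 562 at a threshold of 0.10 and 196 without slide 3. It ranged from 266 to 383 when single arrays were left out and from 204 to 338 when tumour numbers were. Members not detected on all arrays numbered 1, and 0 when the flag for a positive and significant signal replaced that for a signal well above background. Signs reversed for Cebpb (0.084 with median centring, 0.051 with quantile normalization, 0.052 in the deposited table), for Nr1h3 (−0.016 with normexp, −0.077 with the mean of its probes, −0.35 on the other probe, −0.72 without YFP− tumour 6, −0.32 without tumour 6, in a range from −0.72 to 0.60 over left-out arrays), for Spic (0.36) and Tfec (−0.88) with brightness as a covariate, and for Tfec without YFP− tumour 2 (−0.0036) or tumour 3 (−0.032), in a range up to 0.39 over left-out tumours. The cause was not tested.

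The labels give arrays of equal tumour number as the YFP+ and YFP− samples of the same tumour, a pairing that the main fit leaves out. Whether the values of such arrays are more alike than those of other arrays was not settled. The correlation of deviations between same-numbered arrays ran from −0.30 to 0.37, and 3 of 6 YFP+ arrays correlated best with their own number. These 3 numbers are those whose arrays share a slide, so number and slide cannot be told apart in this check. With the tumour number as a replicate block, 0 members and 296 genes were called when it was fixed, and 0 members and 431 genes when random. The Gata6 difference of −2.57 then had an adjusted p of 0.089 and 0.061. The number of arrays and, for Gata6, a signal near background on 1 array limit precision.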
